A study of Mus musculus with 10 samples.

Results

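In mouse sperm most cytosines sampled by reduced representation bisulfite sequencing (RRBS) were either almost fully methylated or almost unmethylated, and the positions described here are the minority in between. A position was taken as intermediate when it lay on an autosome, had at least 10 counts in each of the 2 sperm libraries and a methylation level above 20% and below 80% in both, and had at least 5 counts in each embryo group after its 2 libraries were summed. These limits were met by 2123 of the 60761 autosomal positions with that coverage (3.49%), out of 339527 autosomal positions with any count. With the same coverage, 20215 positions were at 80% or more in both sperm libraries (methylated in sperm), 35875 were at 20% or less in both (unmethylated in sperm), and 2548 fell into different classes in the 2 libraries.

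RRBS cuts DNA with MspI and reads short CpG-rich fragments after bisulfite treatment, and a count is a read call of methylated or unmethylated at a cytosine. The 5 groups, with 2 libraries labelled biological duplicates in each, were sperm of CAST/EiJ males (genotype WT), zygotes of the genotypes WT and CKO, and blastocysts of the genotypes WT and CKO, where the labels give CKO embryos the genotype maternal Tet3 KO. All embryos carried the label C57BL/6J x CAST/EiJ and came from eggs of superovulated females aged 7 to 10 weeks that were fertilised in culture with CAST/EiJ sperm. Zygotes were taken 13 h after fertilisation, with 40 to 50 pooled in a library, and blastocysts 96 h after it, with 4 pooled in a library. The sources used here give neither the promoter or Cre behind the knockout nor whether reads were assigned to the allele of a single parent. The names of all deposited files, embryos included, begin with CAST, and no source used here says what that marks. If embryo libraries hold reads of both parents, an embryo level also contains the allele of the egg, whose own level was not measured.

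A cytosine is methylated or not in each DNA molecule, so an intermediate level in sperm is a mixture of molecules in both states. After fertilisation the DNA brought by sperm loses much of its methylation, in part because TET3, a dioxygenase stored in the egg, oxidises 5-methylcytosine to 5-hydroxymethylcytosine and further products, and in part because the mark is diluted as cells divide. Bisulfite reads 5-methylcytosine and 5-hydroxymethylcytosine alike, so each level below is the sum of both marks.

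The intermediate positions were covered at moderate depth. Their median count was 24 and 22 in the sperm libraries, 10 to 14 in the zygote libraries and 9 to 10 in the blastocyst libraries, and each library held between 21793 and 56117 counts over them. All 2123 were counted in both sperm libraries by the rule, and 1996 to 2085 had a count in any given embryo library. For the means by library, 1532 positions (72.2%) with at least 1 count in every embryo library were used, so that each mean runs over the same positions. Of the 2123, 554 had at least 5 counts in every embryo library. Named positions were taken from these, apart from clusters and positions at the limits of the rule.

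Intermediate positions occurred on all 19 autosomes, with a share of the covered positions between 2.84% on chromosome 9 and 4.61% on chromosome 16. The largest number, 197, lay on chromosome 5. Joined where neighbours lay within 100 bp, they formed 1446 clusters, of which 999 held a lone position, 291 held 2 and 156 held 3 or more. Over the 677 pairs of neighbouring members, both positions had the same number of counts in sperm in 88.9% of pairs, which shows that many pairs were read from the same fragments. Members of a cluster are therefore not independent measurements. The pooled sperm level of the 2123 had a median of 49.0%, with quartiles of 37.5% and 62.7%. The 2 sperm libraries differed by a median of 10.3 points at a position, and their squared differences summed to 1.16 times what counting error alone gives. Both sperm libraries took part in the choice, so this closeness is a property of the rule as well as of the sperm.

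The positions nearest to the limits of the rule are given as a description. Just inside the lower limit, chromosome 7 position 38152227 (mm9, as for every coordinate here) had 11 of 54 and 10 of 36 sperm counts methylated, and, with replicates summed, embryo levels of 0% and 15.2% for WT and CKO zygotes and 0% and 25.9% for WT and CKO blastocysts. Chromosome 5 position 144350070 had 10 of 49 and 9 of 25. Just outside it, chromosome 1 position 137583056 had 4 of 11 and 2 of 10 and was at 0% in all 4 embryo groups. The position next to it in that order, chromosome 1 position 184707283, had 6 of 18 and 3 of 15 in sperm and embryo levels of 100%, 84.6%, 0% and 60% in the same order. Just inside the upper limit lay chromosome 16 position 51707915, with 47 of 59 and 49 of 68, and chromosome 10 position 60003049, with 39 of 49 and 28 of 44. Just outside it lay chromosome 1 position 3546863, with 16 of 20 and 17 of 22, and chromosome 1 position 135059382, with 8 of 10 and 6 of 11.

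The surroundings of these positions in sperm were examined within 100 bp on either side, among other positions with at least 10 counts in both sperm libraries. At least 1 such neighbour was present for 1574 of the 2123 positions (74.1%). Their mean level was itself intermediate, above 20% and below 80%, around 1237 of the 1574 (78.6%), low around 226 (14.4%) and high around 111 (7.05%). Around positions methylated in sperm the neighbours were high in 75.8% and intermediate in 17.4%, and around positions unmethylated in sperm they were low in 92.9% and intermediate in 1.81%. Where a neighbour was covered, intermediate surroundings were thus the most frequent, while 549 of the 2123 positions had no such neighbour. An edge from low to high could be looked for only at intermediate positions with covered neighbours on both sides, 414 of the 2123, and was rare among them. Of 414 with neighbours on both sides, 1 had a mean of 20% or less on 1 side and 80% or more on the other (0.242%). The share was 346 of 3128 for methylated (11.1%) and 0.246% for unmethylated positions. The median number of neighbours was 1 for intermediate and for methylated positions and 4 for unmethylated ones. Neighbours were selected by the same sperm libraries that selected the members and often share their reads, so these shares are a description without a test.

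Embryo levels at the intermediate positions followed the order WT blastocysts, CKO blastocysts, WT zygotes, CKO zygotes, sperm. Over the 1532 positions the sperm libraries stood at 48.8% and 50.2%, and these values were set by the rule. WT zygotes stood at 29.1% and 29.5%, and CKO zygotes at 36.6% and 36.7%. WT blastocysts stood at 14.8% and 12.8%, and CKO blastocysts at 20.2% and 18.9%. No library of any group overlapped a library of the next group in this order. Summed over replicates and taken over all 2123 positions, the levels were 49.9% in sperm, 29.9% and 37.7% in WT and CKO zygotes, and 14.7% and 19.7% in WT and CKO blastocysts.

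**Figure D1:**
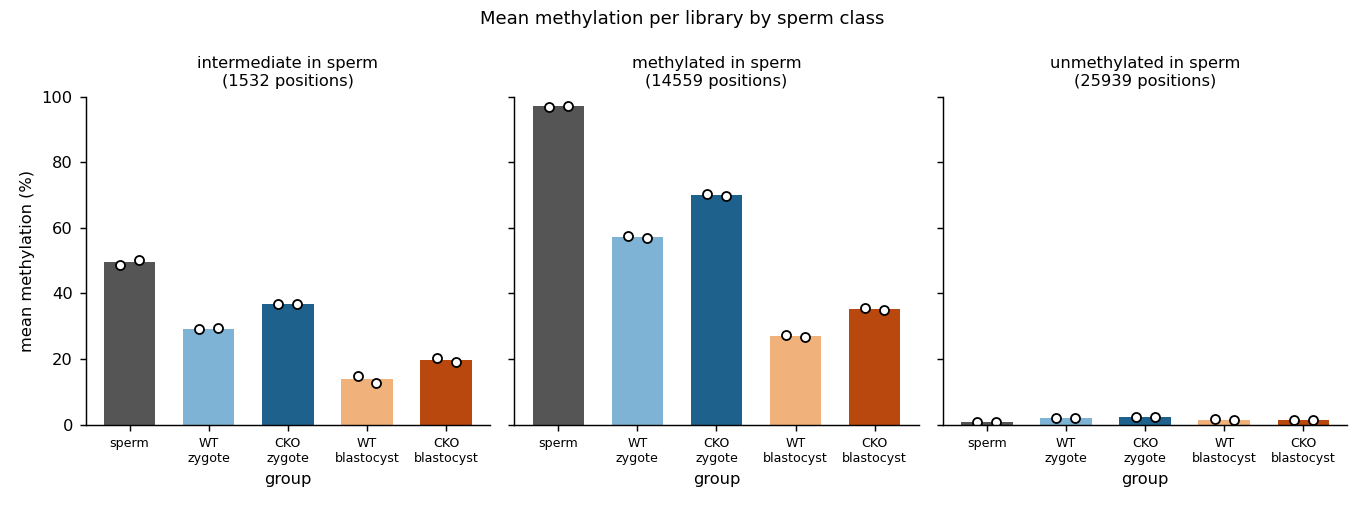
Mean methylation in percent (vertical axis, linear from 0) in each of the 5 groups, for positions intermediate (1532), methylated (14559) and unmethylated (25939) in sperm with at least 1 count in every embryo library. Bars are the means of 2 libraries and open circles the libraries; in the left panel the CKO bars exceed the WT bars by 7.36 points in zygotes and 5.79 points in blastocysts.

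CKO zygotes were more methylated than WT zygotes at positions intermediate in sperm. The mean was 36.7% ± 0.0378 (SD, n = 2) in CKO against 29.3% ± 0.243 (n = 2) in WT zygotes, so CKO exceeded WT by 7.36 points with an SD of 0.246, beyond the spread between libraries. The nearest libraries of the 2 genotypes were 7.16 points apart. In blastocysts the mean was 19.6% ± 0.914 in CKO against 13.8% ± 1.47 in WT (SD, n = 2 each), which is 5.79 points with an SD of 1.73, and the nearest libraries were 4.10 points apart. At each stage alone an exact permutation test (two-sided) gave p = 0.333, and 2 against 2 libraries cannot give less. The mean of the 2 stage differences was 6.57 points (SD 0.875), with an exact two-sided permutation p of 0.0556 when genotype was permuted within stage over 36 arrangements, again the smallest possible. Adjusted over the 28 such tests made here (Benjamini-Hochberg), these values were 0.373 and 0.173, so none passed 0.05, and the design allows none to pass. The permuted units were libraries of pooled embryos. Each p-value reflects the rank of the observed difference among the arrangements, and it does not measure the size of the spread between libraries.

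The change of the genotype difference between stages was small beside its error. It was -1.57 points from zygote to blastocyst (SD 1.75, exact permutation p = 0.667). Without WT blastocyst replicate 1 it was -0.367 points, without WT blastocyst replicate 2 -2.86 points, and leaving out CKO blastocyst replicate 2 gave -0.758 points. It exceeded its SD with at least 3 counts in each embryo library (-2.02 points, SD 1.24), with at least 5 (-2.68 points, SD 2.21) and with summed counts (-2.20 points, SD 1.68), each with an exact permutation p of 0.556. Both genotypes lost methylation over this interval: WT embryos fell by 15.5 points (SD 1.49) and CKO embryos fell by 17.1 points (SD 0.915), each larger than the spread between replicates, with the smallest exact permutation p of 0.333. The blastocyst level was 47.1% ± 5.04 of the zygote level in WT and 53.4% ± 2.49 in CKO (SD propagated from 2 libraries at each stage). These shares differed by about the size of their spread.

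The direction of the genotype difference was shared by most chromosomes. CKO zygotes exceeded WT zygotes on 16 of 19 autosomes, with a median difference of 7.81 points and a range from -1.85 points on chromosome 13 (68 positions) to 20.9 points on chromosome 19 (47 positions). CKO blastocysts exceeded WT blastocysts on 19 of 19 autosomes, by 1.24 points on chromosome 12 (78 positions) to 12.3 points on chromosome 2 (114 positions). The other 2 autosomes below 0 in zygotes were chromosome 16, at -1.83 points, and chromosome 18, at -0.932 points. Chromosomes are read from the same libraries and are not replicates, so the count is a description.

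Embryo levels rose with the sperm level. In the band of a pooled sperm level above 20% and up to 40% (502 positions, sperm mean 32.8%), WT zygotes stood at 17.7% and 19.3%, CKO zygotes at 24.4% and 24.3%, WT blastocysts at 9.86% and 9.29%, and CKO blastocysts at 13.5% and 11.8%. In the band from 40% to 60% (591 positions, sperm mean 49.7%) the same libraries stood at 30.7% and 29.5%, 36.1% and 38.0%, 16.2% and 13.2%, and 21.7% and 19.2%. In the band from 60% to below 80% (439 positions, sperm mean 68.3%) they stood at 40.1% and 41.1%, 51.3% and 49.1%, 18.7% and 16.2%, and 26.0% and 26.8%. In each band and at each stage both CKO libraries lay above both WT libraries. The nearest libraries were 1.96 points apart in the lower band of blastocysts and 8.04 points apart in the upper band of zygotes.

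**Figure D2:**
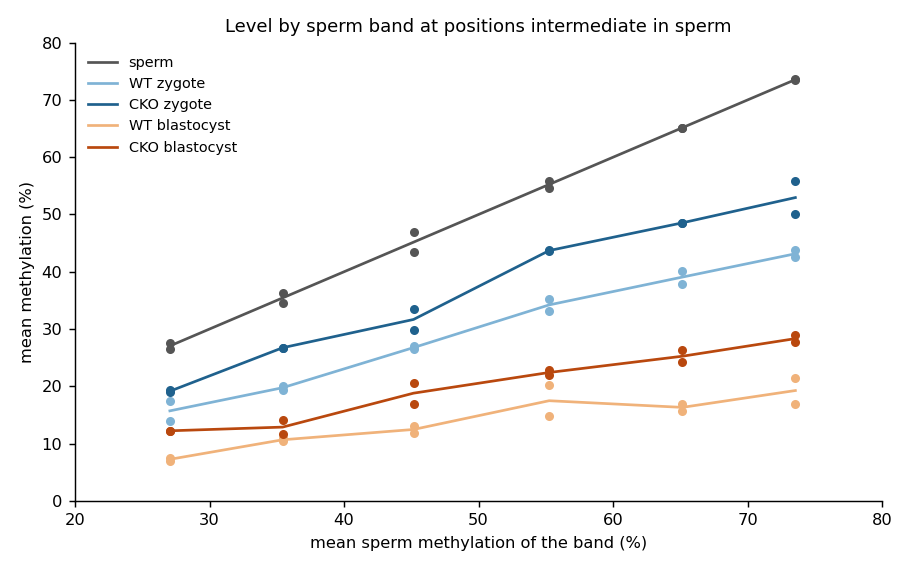
Mean methylation in percent (vertical axis) against the mean sperm level in percent (horizontal axis) for 6 sperm bands of 10 points each. Points are libraries, 2 per group, and lines join group means; every embryo group lies below sperm in each band, and the CKO line lies above the WT line of the same stage in each band.

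The genotype difference was larger where the sperm level was higher. In zygotes CKO minus WT was 5.86 points (SD 1.14) in the lower band, 6.97 points (SD 1.56) in the middle band and 9.60 points (SD 1.69) in the upper band. In blastocysts it was 3.09 points (SD 1.26), 5.70 points (SD 2.78) and 8.98 points (SD 1.89). The upper band exceeded the lower by 3.75 points (SD 1.56) in zygotes and by 5.89 points (SD 2.26) in blastocysts, both larger than their SD, with an exact two-sided permutation p of 0.333 each. Averaged over stages the excess was 4.82 points (SD 1.37, exact permutation p = 0.0556, adjusted 0.173). In bands of 10 points the order was not strict: in zygotes the band from 40% to 50% had 4.91 points (SD 2.52), below the 6.98 points (SD 0.539) of the band from 30% to 40%, and in blastocysts the band from 30% to 40% had 2.21 points (SD 1.79), below the 4.98 points (SD 0.415) of the band from 20% to 30%.

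**Figure D3:**
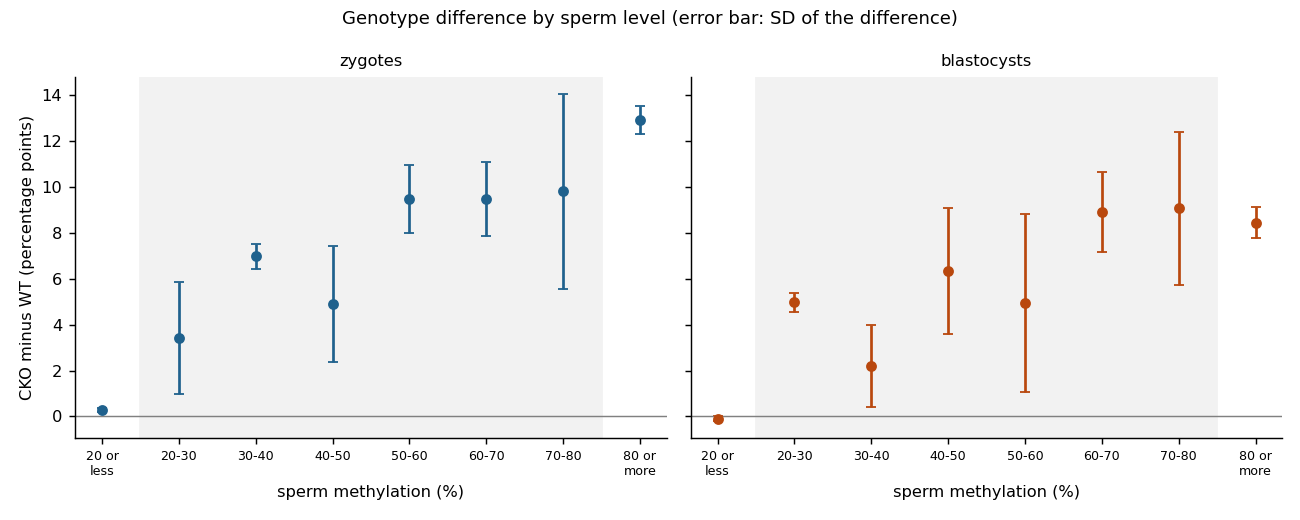
CKO minus WT in percentage points (vertical axis) by sperm level in percent (horizontal axis), for zygotes (left) and blastocysts (right). Points are differences of group means and error bars the SD of the difference from 2 libraries per group; the shaded bands are the intermediate positions, from 3.43 points at 20% to 30% to 9.81 points at 70% to 80% in zygotes, between the unmethylated (0.284) and methylated (12.9) positions, while in blastocysts the 2 highest bands (8.93 and 9.07) are not below the methylated positions (8.45).

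Taken as a whole set, positions intermediate in sperm lay between the other sperm classes in the size of the genotype difference. In blastocysts the band from 60% to below 80%, at 8.98 points (SD 1.89), was not below the methylated class. At 14559 positions methylated in sperm CKO exceeded WT by 12.9 points (SD 0.616) in zygotes and 8.45 points (SD 0.669) in blastocysts. At 25939 positions unmethylated in sperm the differences were 0.284 points (SD 0.0772) and -0.0973 points (SD 0.114). The difference at intermediate positions was smaller than that at methylated ones by 4.12 points averaged over stages (SD 0.679) and larger than that at unmethylated ones by 6.48 points (SD 0.825). Both contrasts had an exact two-sided permutation p of 0.0556, the smallest possible, and an adjusted value of 0.173. Within stages, intermediate minus methylated was -5.58 points (SD 0.828) in zygotes and -2.66 points (SD 1.08) in blastocysts. Summed counts gave -3.48 points in zygotes and at least 5 counts gave -4.03 points in blastocysts, and whether the stages differ in this was not tested.

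Expressed as a percent of the sperm level of the same positions, intermediate and methylated positions were nearly alike in WT embryos. WT zygotes held 59.2% ± 0.490 of the sperm level at intermediate and 58.9% ± 0.453 at methylated positions, and WT blastocysts 27.9% ± 2.97 and 27.8% ± 0.520 (SD, n = 2 libraries, with the sperm mean taken as fixed). In CKO zygotes the values were 74.1% ± 0.0763 and 72.2% ± 0.444, and in CKO blastocysts 39.6% ± 1.85 and 36.5% ± 0.453. On this scale CKO minus WT at intermediate positions was 14.9 points of the sperm level in zygotes (SD 0.496) and 11.7 points in blastocysts (SD 3.50). It exceeded that at methylated positions by 1.54 points in zygotes (SD 1.08), 2.98 points in blastocysts (SD 2.82) and 2.26 points over both stages (SD 1.51, exact permutation p = 0.0556, adjusted 0.173). The zygote excess was 0.724 points without WT zygote replicate 1 and 2.87 points without WT zygote replicate 2. The blastocyst excess was 4.88 points without WT blastocyst replicate 1, 0.591 points without WT blastocyst replicate 2, and leaving out CKO blastocyst replicate 1 gave 1.76 points. Over both stages it was 1.03 points without WT blastocyst replicate 2, and leaving out CKO blastocyst replicate 1 gave 1.47 points. With 1 value per cluster it was 0.990 points (exact permutation p = 0.444), with summed counts 3.11 points (p = 0.111, exact) and with at least 5 counts 1.98 points (p = 0.222, exact). The zygote excess ranged from 0.726 points with 1 value per cluster to 3.98 points with summed counts, and the blastocyst excess was 1.25 points with 1 value per cluster and 0.840 points with at least 5 counts. The excess over methylated positions on this scale therefore did not hold across the processing. On this scale the upper minus the lower sperm band was -3.82 points (SD 3.24, exact permutation p = 0.333) in zygotes and 3.72 points (SD 4.71, exact permutation p = 0.667) in blastocysts, in opposite directions. Their average was -0.0485 points (SD 2.86, exact permutation p = 1). The scale was chosen after the data were seen, and its denominator comes from the libraries that chose the positions.

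At single positions, low levels were the most frequent in every embryo group. At each position 5 counts were drawn from its pooled counts, which gives every group the same depth, and the expected shares were computed exactly. In sperm 54.5% of positions then had 2 or 3 methylated counts of 5, 22.9% had 0 or 1 and 22.6% had 4 or 5. In WT zygotes 57.7% had 0 or 1, 28.6% had 2 or 3 and 13.7% had 4 or 5. In CKO zygotes the shares were 45.3%, 37.5% and 17.2%. More of the positions were thus at 0 or 1 of 5 in WT than in CKO zygotes. In WT blastocysts 79.6% had 0 or 1, 16.2% had 2 or 3 and 4.25% had 4 or 5, and in CKO blastocysts the shares were 71.5%, 22.3% and 6.25%. These shares rest on pooled replicates and carry no test.

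**Figure D4:**
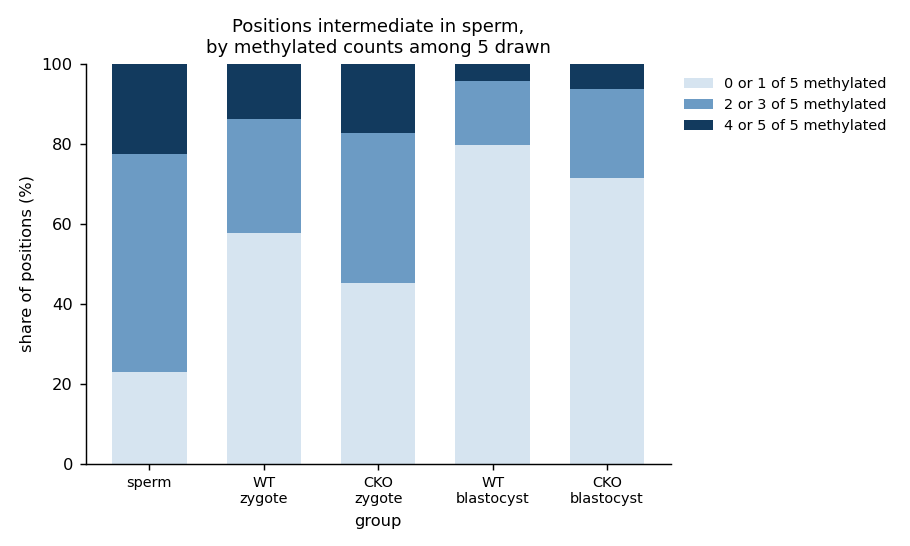
Share of the 2123 positions in percent (vertical axis, stacked to 100%) by the number of methylated counts among 5 drawn from the pooled counts of each group (horizontal axis). The lightest segment, 0 or 1 of 5, is 57.7% and 45.3% in WT and CKO zygotes and 79.6% and 71.5% in WT and CKO blastocysts. The sperm bar (22.9%) was set by the rule that chose the positions.

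At the full pooled depth, 516 of the 2123 positions (24.3%) had no methylated count in WT zygotes and 231 (10.9%) had none in CKO zygotes, with a median of 23 and 28 counts. In blastocysts the numbers were 1014 (47.8%) in WT and 811 (38.2%) in CKO, with medians of 19 and 18 counts. Positions with every count methylated were few, with 67 in WT and 54 in CKO zygotes and 10 in WT and 14 in CKO blastocysts. Depth differs between groups and a low depth raises such counts, while CKO zygotes were the deepest embryo group here.

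Embryo replicates differed at single positions by more than counting error. The sperm value beside them is limited by the rule, which kept only positions between 20% and 80% in both sperm libraries, so sperm and embryo spreads are not compared. At intermediate positions with at least 10 counts in both libraries of a group, the squared difference between replicates was 6.53 and 6.44 times the counting error in zygotes (767 positions for WT, 1012 for CKO) and 5.19 and 5.01 times in blastocysts (560 for WT, 567 for CKO), with 1.16 times in sperm (2123). The replicates differed by more than 50 points at 15.4% (WT) and 16.2% (CKO) of these positions in zygotes and at 7.86% (WT) and 7.94% (CKO) in blastocysts. The correlation with the sperm level over the 2123 positions was r = 0.325 (WT) and 0.377 (CKO) in zygotes and 0.174 (WT) and 0.241 (CKO) in blastocysts. Between WT and CKO zygotes it was 0.351 and between WT and CKO blastocysts 0.258. These correlations are across positions, which share libraries and depth, and are given without a test. The correlations with the sperm level cover only the range from 20% to 80% that the rule kept, and a narrow range lowers a correlation.

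Neighbouring members of a cluster resembled each other in the embryo as they did in sperm. Over the 677 pairs within 100 bp, levels correlated with r = 0.684 in sperm, 0.685 (WT) and 0.597 (CKO) in zygotes, and 0.574 (WT) and 0.634 (CKO) in blastocysts, and 88.9% to 91.3% of pairs had equal counts in a group. The largest cluster held 6 positions on chromosome 1 between 140457258 and 140457307. Its pooled levels were 51.6% to 54.7% in sperm, 50% to 100% (WT) and 56.2% to 90.9% (CKO) in zygotes, and 0% to 33.3% (WT) and 13.6% to 35.3% (CKO) in blastocysts. Averaged over the 6 positions, both zygote groups (75.2% in WT, 76.7% in CKO) were above sperm (53.4%), while 1 position in WT zygotes was below it. CKO blastocyst replicate 1 had at most 1 count at any of the 6, so the CKO blastocyst value came almost wholly from replicate 2.

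Several clusters held 5 positions, and the next 3 in genome order are given. On chromosome 2 between 171698666 and 171698703, the 5 positions averaged 51.0% in sperm, 27.3% (WT) and 44.0% (CKO) in zygotes, and 12.7% (WT) and 52.2% (CKO) in blastocysts. Replicates disagreed there: WT zygotes averaged 18.9% (19 counts at each position) and 80.0% (3 counts), CKO zygotes 0% and 70.1%, and CKO blastocysts 6.67% and 75.0%. On chromosome 4 between 141587614 and 141587655, the average was 31.2% in sperm, 7.80% in WT zygotes and 55.9% in CKO zygotes, with 1.33% and 11.5% in the WT and 35.7% and 70% in the CKO zygote libraries. The blastocysts there were at 3.33% in WT and 0% in CKO. On chromosome 4 between 152696154 and 152696239 the average was 38.1% in sperm, 15.5% in WT zygotes and 23.8% in CKO zygotes, whose libraries averaged 4.00% and 43.9%, the latter above sperm. It was 6.32% in WT and 5.08% in CKO blastocysts.

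The genotype difference was also given by the sperm surroundings of a position. Averaged over stages CKO exceeded WT by 6.15 points (SD 1.07) at 171 positions with low neighbours, 7.15 points (SD 1.24) at 859 with intermediate neighbours, 10.04 points (SD 3.74) at 79 with high neighbours and 4.94 points (SD 2.52) at 423 without a covered neighbour. The exact two-sided permutation p was 0.0556 for all but the high neighbours, where it was 0.111 and the adjusted value 0.311. With low neighbours the difference was 3.25 points (SD 1.77) in zygotes and 9.04 points (SD 1.19) in blastocysts, and with high neighbours 15.2 points (SD 4.44) and 4.83 points (SD 6.01). With high neighbours the average over stages depended on the processing: it was 6.68 points (SD 4.72) with at least 3 counts in each embryo library, 3.72 points (SD 7.77) with at least 5, and 5.01 points (SD 2.91) with summed counts. With at least 5 counts it was below the 6.92, 7.50 and 4.00 points of the low, intermediate and absent neighbours, so the order of the surroundings was not stable. The difference between these surroundings was not tested.

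No single position passed the test between genotypes or stages, and the test had little power with 2 libraries per group. On simulated positions with the spread between replicates seen here it missed the changes put in, so the absence of calls does not show that positions did not differ. The fit covered all 54343 autosomal positions with at least 5 counts in each embryo group and at least 1 in each library (edgeR's quasi-likelihood test, Benjamini-Hochberg adjusted p below 0.05), and called 0 of them in each comparison, a background of 0%, with 0 of 1532 intermediate positions called. limma called 0 as well. At an unadjusted p below 0.05 in edgeR, 52 of 1532 intermediate positions differed between CKO and WT zygotes (3.39%), against 1.68% of all positions. In CKO 41 were higher (2.68%, against 1.46%) and 11 lower (0.718%, against 0.212%). Between CKO and WT blastocysts 14 did (0.914%), against 0.788% of all positions, so the blastocyst share was close to the background. Of these 7 were higher (0.457%, against 0.616%) and 7 lower (0.457%, against 0.171%) in CKO. This even split was not stable across runs. limma at the same unadjusted p gave 106 of 1532 higher and 43 lower, against 2123 and 907 of all 54343 positions. In edgeR, with a term for the replicate number added, 11 were higher and 5 lower, against 337 and 111 of all positions. With at least 5 counts in each embryo library, 4 of 554 were higher and 1 lower, against 147 and 29 of 15222. Leaving out 1 blastocyst library changed the split as well. For blastocysts against zygotes 64 differed in WT in the main edgeR fit (4.18%, against 4.04%), 61 lower (3.98%, against 3.96%) and 3 higher (0.196%, against 0.0791%). In CKO 85 did (5.55%, against 4.69%), 83 lower (5.42%, against 4.67%) and 2 higher (0.131%, against 0.0184%). For the change of the genotype difference between stages 24 did (1.57%, against 0.819%), 12 higher (0.783%, against 0.351%) and 12 lower (0.783%, against 0.467%). Leaving out 1 library moved these counts and those over all positions, down in some runs and up in others. Such runs leave 1 library in a group, so their counts are not given.

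A plainer count used the 554 intermediate positions with at least 5 counts in every embryo library and asked where the 2 CKO libraries lay apart from the 2 WT libraries. In zygotes both CKO libraries were higher at 126 positions (22.7%) and both lower at 48 (8.66%), while over all 15222 positions with that depth the shares were 11.4% and 3.8%. In blastocysts CKO was higher at 88 (15.9%) and lower at 51 (9.21%), against 10.7% and 4.95% of all positions. Among the 5204 positions methylated in sperm the shares were 25.3% and 7.63% in zygotes and 25.2% and 10.01% in blastocysts. CKO was higher without overlap at both stages at 22 of the 554 positions (3.97%, against 2.76% of all positions) and lower at both stages at 6 (1.08%, against 0.381%). It was higher in zygotes and lower in blastocysts at 13 (2.35%, against 1.06%), and the reverse at 7 (1.26%, against 0.736%). The intermediate share was thus the larger in each of these patterns, and all positions include those unmethylated in sperm.

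The positions with the largest separated differences are given next, at most 1 per cluster. They were chosen for their size, so the values describe them, and the adjusted p was 1 for each in edgeR at both stages. Where no count was methylated, 3 divided by the number of counts was taken as a rough upper limit, which is coarse at few counts. For a library with 0 methylated of 5 counts this limit is 60%, so libraries of few counts are weak evidence of an unmethylated position. In zygotes the largest rise was on chromosome 12 at position 110353547, where sperm had 6 of 25 and 9 of 21 counts methylated. WT zygotes had 0 of 5 and 0 of 6, and CKO zygotes 12 of 12 and 6 of 6. The zygote groups thus stood at opposite ends with few counts in WT, and in blastocysts the genotypes overlapped, with 3 of 5 and 0 of 13 in WT and 4 of 7 and 0 of 12 in CKO.

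Chromosome 10 position 44161559 had 24 of 37 and 18 of 25 counts methylated in sperm. WT zygotes had 8 of 23 and 4 of 22 there, and CKO zygotes 8 of 8 and 13 of 13. CKO zygotes thus exceeded sperm, while the blastocyst libraries of both genotypes overlapped between 0% and 38.5%. Chromosome 10 position 67304610 had 32 of 51 and 21 of 31 in sperm, 0 of 8 and 0 of 7 in WT zygotes and 9 of 13 and 13 of 18 in CKO zygotes. It was also separated in blastocysts, with 0 of 16 and 2 of 30 in WT and 6 of 6 and 5 of 15 in CKO. There the CKO zygotes kept about the sperm level (70.7% ± 2.12 against 65.2% ± 3.53, SD, n = 2 each) and the WT zygotes had no methylated count. Chromosome 5 position 23919958 had 0 of 15 and 9 of 30 in WT and 13 of 17 and 15 of 17 in CKO zygotes, with 12 of 16 and 22 of 30 in sperm.

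Differences in the opposite direction were smaller at each rank, from -72.3 points at the largest to -54.1 at the fifth, against 100 to 67.4 points for those higher in CKO. On chromosome 18 at position 19780713, WT zygotes had 7 of 7 and 18 of 24 counts methylated and CKO zygotes 6 of 35 and 2 of 15, with 11 of 29 and 30 of 70 in sperm. On chromosome 14 at position 40760596, WT zygotes had 28 of 32 and 23 of 23 and CKO zygotes 1 of 13 and 9 of 20, with 18 of 55 and 22 of 36 in sperm. At both positions WT zygotes exceeded the sperm level and CKO zygotes did not. Chromosome 7 position 20342192 had the same order, with 19 of 21 and 5 of 5 in WT and 2 of 7 and 4 of 9 in CKO zygotes against 7 of 16 and 5 of 15 in sperm. On chromosome 5 at position 60221226, WT zygotes had 10 of 10 and 5 of 5 and CKO zygotes 1 of 12 and 5 of 7. Chromosome 1 position 97550247 was lower in CKO at both stages, with 15 of 16 and 5 of 9 in WT zygotes, 5 of 17 and 2 of 17 in CKO zygotes, 10 of 20 and 11 of 11 in WT blastocysts and 2 of 23 and 5 of 19 in CKO blastocysts.

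In blastocysts the largest rise in CKO was on chromosome 1 at position 190967278, a member of a cluster of 4. WT blastocysts had 0 of 19 and 0 of 20 counts methylated and CKO blastocysts 9 of 9 and 9 of 14, with 10 of 30 and 17 of 34 in sperm. Its zygotes were low, with 0 of 18 and 2 of 37 in WT and 4 of 10 and 0 of 13 in CKO, so CKO blastocysts stood above CKO zygotes there. Chromosome 16 position 50832996 had 3 of 10 and 0 of 7 in WT and 15 of 18 and 8 of 9 in CKO blastocysts. Chromosome 11 position 94126997 had 4 of 16 and 0 of 10 in WT and 7 of 7 and 17 of 27 in CKO blastocysts, and chromosome 4 position 135082488 had 0 of 11 and 0 of 9 against 4 of 7 and 8 of 11. At the latter 3 positions the zygote genotypes overlapped.

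Lower values in CKO blastocysts were led by chromosome 1 position 91428703, with 12 of 13 and 6 of 7 counts methylated in WT and 9 of 37 and 0 of 8 in CKO blastocysts, against 27 of 35 and 26 of 35 in sperm. Chromosome 11 position 109080503 had 3 of 11 and 5 of 5 in WT and 0 of 8 and 0 of 11 in CKO blastocysts, and chromosome 1 position 156104221 had 5 of 8 and 5 of 5 against 4 of 9 and 0 of 18. The lower WT library of chromosome 11 position 109080503 had 27.3%, so that difference came mainly from the other. Chromosome 14 position 80901731 was among the largest differences at both stages in opposite directions. It had 0 of 19 and 5 of 24 in WT and 16 of 24 and 12 of 12 in CKO zygotes, then 11 of 14 and 8 of 8 in WT and 0 of 8 and 9 of 15 in CKO blastocysts.

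**Figure D5:**
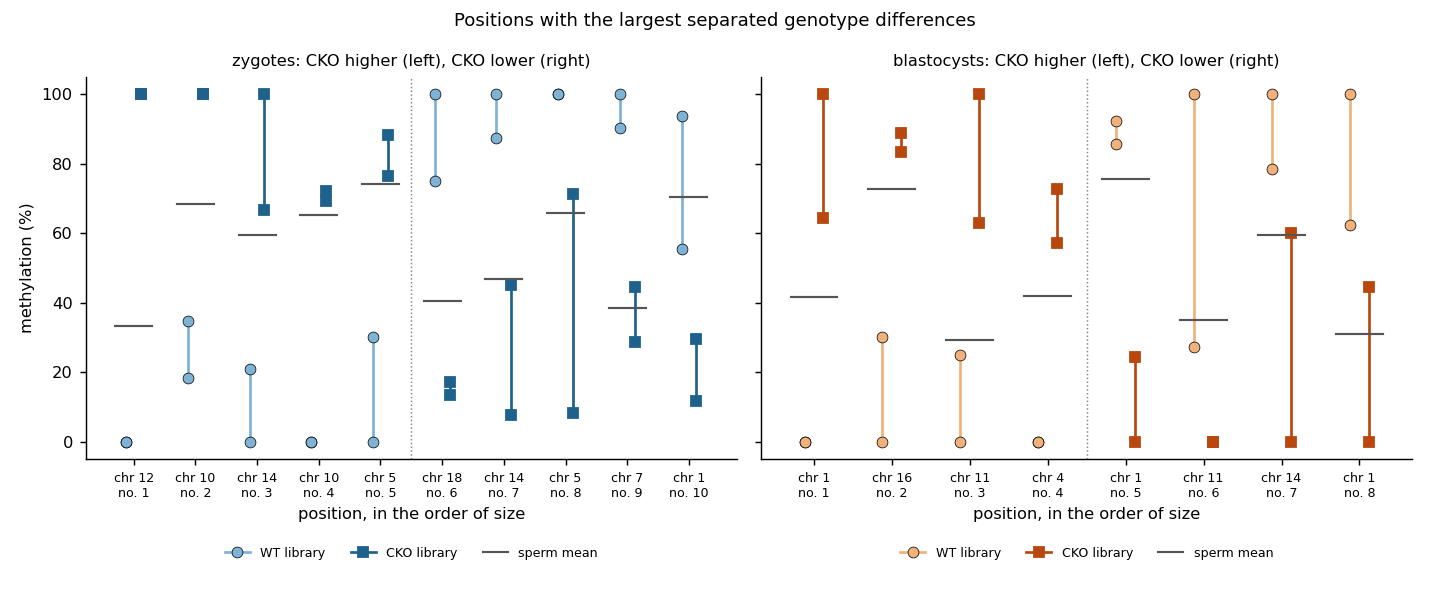
Methylation in percent (vertical axis) in each WT library (circles) and CKO library (squares) at the positions with the largest separated genotype differences (horizontal axis, in the order of size within each side of the dotted line), for zygotes (left) and blastocysts (right). Grey lines are the sperm means, all between 20% and 80%; CKO libraries lie above WT libraries left of the dotted line and below them right of it.

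Positions with CKO above WT at both stages were looked at after the values were seen. Beside chromosome 10 position 67304610, the largest summed differences were on chromosome 10 at position 95097079, chromosome 13 at position 118447537 and chromosome 6 at position 140986343. At chromosome 6 position 140986343 the libraries of a genotype were close in CKO. WT zygotes had 0 of 10 and 5 of 16 counts methylated, CKO zygotes 10 of 17 and 7 of 12, WT blastocysts 0 of 16 and 0 of 5 and CKO blastocysts 12 of 27 and 4 of 8, with 20 of 33 and 20 of 27 in sperm. At chromosome 10 position 95097079 the CKO libraries were far apart, with 5 of 5 and 10 of 20 in zygotes and 10 of 10 and 2 of 22 in blastocysts, as they were at chromosome 13 position 118447537, with 9 of 9 and 14 of 22 and then 7 of 7 and 3 of 20.

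Some intermediate positions were methylated in every embryo library. The highest of all lowest-library levels belonged to chromosome 2 position 33912322, a member of a cluster of 4, with 24 of 37 and 7 of 13 counts methylated in sperm. It had 31 of 31 and 16 of 19 in WT zygotes, 18 of 18 and 40 of 56 in CKO zygotes, 19 of 22 and 10 of 19 in WT blastocysts and 17 of 22 and 30 of 41 in CKO blastocysts. Chromosome 5 position 134819220 had 5 of 16 and 6 of 21 in sperm, and its embryo libraries lay between 50.0% and 100%, all above both sperm libraries. Chromosome 16 position 55473758 had 12 of 35 and 13 of 40 in sperm and 35.7% to 100% in the embryo libraries, including 9 of 9 and 7 of 7 in CKO blastocysts. Chromosome 7 position 75078962 had 20 of 36 and 10 of 30 in sperm and 38.1% to 85.7% in embryos. At these 4 positions every blastocyst library was above the lower sperm library, except WT blastocyst replicate 2 at chromosome 2 position 33912322, with 52.6% against 53.8%.

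At the other end, 6 of the 554 positions had no methylated count in any embryo library. On chromosome 4 at position 125938475, 8 of 30 and 4 of 13 sperm counts were methylated and 0 of 145 embryo counts, which would allow a share of up to 2.07%. On chromosome 7 at position 150648124 the sperm counts were 11 of 45 and 7 of 21, with 0 of 141 in embryos and an upper limit of 2.13%. On chromosome 15 at position 96889466 they were 15 of 45 and 15 of 55, with 0 of 171 and a limit of 1.75%, and on chromosome 11 at position 3441522 they were 7 of 21 and 5 of 18, with 0 of 95 and a limit of 3.16%. All 4 had a sperm level in the lower band. The limits are rough, as 3 divided by the number of counts, and they cover counting error only, since reads carry no molecular identifiers.

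Between zygote and blastocyst, 49 of the 554 positions had all 4 blastocyst libraries below all 4 zygote libraries (8.84%, against 8.27% of all positions with that depth), and 1 had them all above (0.181%, against 0.0394%). Among the largest falls, chromosome 12 position 82114680 had 12 of 14 and 7 of 10 counts methylated in WT zygotes and 17 of 23 and 24 of 42 in CKO zygotes. It then had 0 of 15 and 0 of 40 in WT blastocysts and 0 of 24 and 2 of 32 in CKO blastocysts, so the zygotes were near the sperm counts of 40 of 55 and 28 of 37 and the blastocysts nearly unmethylated. Chromosome 14 position 21623962 went from 53.8% to 75.0% in the zygote libraries to 0 methylated of 8 to 14 counts in each blastocyst library. Chromosome 18 position 37703768 had every count methylated in all 4 zygote libraries (5 to 10 counts each) and 0% to 66.7% in blastocysts, and chromosome 9 position 65117969 had 65.2% to 100% and 0% to 56.2%.

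The lone position that rose lay on chromosome 3 at position 34604770, with 24 of 58 and 22 of 52 counts methylated in sperm. It had 0 of 11 and 3 of 14 in WT zygotes and 3 of 17 and 0 of 16 in CKO zygotes. In blastocysts it had 16 of 30 and 12 of 21 in WT and 21 of 45 and 5 of 19 in CKO. Every zygote library was thus below both sperm libraries, and 3 of 4 blastocyst libraries were above them.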

How the data were processed

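Each deposited file lists cytosine positions with their methylated and unmethylated counts and a percent methylation, which at every position equalled the value computed again from the authors' deposited counts. Bismark 0.10.1, Trim Galore and the build mm9 are named in the submitters' processing notes, without settings. Fragments of 150 to 500 bp were kept, per the labels' protocols. Total counts were 2315949 to 2535229 in sperm, 1233982 to 1508297 in zygotes and 1005492 to 1093843 in blastocysts.

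Levels were averaged over positions within a library and compared by exact permutation over libraries (Python 3.11.15). Counts at single positions were fitted with edgeR 4.0.16 (R 4.3.3, dispersion 0, a depth term per library), with limma 3.58.1 and Fisher's exact test on pooled counts as alternatives. The edgeR script was tested on simulated data. Embryo levels were not tested against sperm levels, because sperm values chose the positions. The tests on the percent of the sperm level compared genotypes, with the sperm mean as a fixed denominator. The members, bands and lists were chosen with earlier results of these data known. Named positions followed a rule on size and separation of libraries, with at least 5 counts per embryo library, at most 1 per cluster and ties in genome order. No genome or annotation of mm9 was used here, so positions carry no gene and no sequence.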

Additional observations from a re-analysis of the deposited data

Results flagged for a closer look

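Chromosome 14 position 80901731 stood out because its genotype difference had opposite directions at the 2 stages, with no overlap of libraries at either. CKO exceeded WT by 72.9 points in zygotes, while CKO minus WT was -59.3 points in blastocysts, which makes -132.2 points from the earlier to the later stage. The edgeR test of that change gave an adjusted p of 1, so it did not pass. Among the 554 positions with at least 5 counts in every embryo library, 13 showed this pattern (2.35%, against 1.06% of all positions with that depth) and 7 the reverse pattern (1.26%, against 0.736%). The intermediate share was also the larger for CKO higher at both stages (3.97%, against 2.76%) and lower at both (1.08%, against 0.381%). An excess over all positions, which include those unmethylated in sperm, was therefore not particular to opposite directions, and it was not tested.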

How the results depend on the processing

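Of the 28 mean differences tested, 27 kept their direction under every alternative run: at least 3 or 5 counts in each embryo library, summed counts in place of means over positions, 1 value per cluster and leaving out each library. A sperm window of 30% to 70% and at least 20 sperm counts were run for the 6 differences over the whole set alone, and the 10-point bands, chromosomes and stages within a neighbour class had no alternative. The exception was the excess of the upper over the lower band as a percent of the sperm level. That excess was -0.0485 points over both stages, 0.128 with at least 5 counts in each embryo library, and -2.27 to 0.795 leaving out 1 library. Leaving out 1 library gave 7.14 to 7.82 points for CKO minus WT in zygotes, 4.43 to 6.94 in blastocysts, 5.86 to 7.13 over both stages and -2.86 to -0.367 for its change between stages. The replicate block, differences taken within the replicate number, leaves each mean difference the same by construction (7.36 points in zygotes). It is therefore no check on the means. In edgeR with the block, 0 positions were called in each of the 5 comparisons. Same-numbered libraries did not deviate together (correlations -0.0116 to 0.0162 over 14444 positions), and nothing in the labels ties a number across groups. Fisher's exact test on pooled counts ignores the spread between replicates. Between zygotes it called 5800 of all 54343 positions and 368 of the 1532 intermediate ones, where edgeR and limma called 0. With the same denominators it called 3513 and 188 between blastocysts, 9301 and 383 between WT stages, and 10263 and 465 between CKO stages. Each time the share was larger among intermediate positions than over all positions, which include those unmethylated in sperm. At full depth the share of positions at 20% or less was 45.1% (WT) and 28.7% (CKO) in zygotes and 72.3% (WT) and 60.7% (CKO) in blastocysts, lower than at 5 counts, where counting error is larger by construction. The most frequent class in zygotes thus depended on the depth: it was low at 5 counts and intermediate at full depth (48.4% in WT, 64.2% in CKO).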

Other observations

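On chromosome X, which was left out of the set, 19 positions met the same limits. Their pooled means were 47.6% in sperm, 42.8% (WT) and 36.5% (CKO) in zygotes, and 13.5% (WT) and 24.8% (CKO) in blastocysts. CKO was thus the lower genotype in zygotes and the higher in blastocysts, as on chromosomes 13, 16 and 18. The number is small and the difference was not tested.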
